A study of Oryctolagus cuniculus with 20 samples.

Results

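A set of 5 genes of glucose uptake, glycolysis and the hypoxia response, SLC2A1, ALDOA, GAPDH, LDHA and HIF1A, was followed in the condylar cartilage of rabbit jaw joints, of 886 genes with a named probe. On the array, 15 of 43603 probes were assigned to them. A gene name or a symbol in the description found 9 of these probes, namely 5 for SLC2A1, 3 for HIF1A and 1 for ALDOA. The other 6 probes carry older or provisional names in the files and were found through their RefSeq accession: 5 for LDHA, listed as LDH-M, and 1 for GAPDH. They are counted apart from the 9 throughout. All 15 probes passed the filter on dim probes and were well above background on 20 of 20 arrays.

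The condylar cartilage covers the articular head of the jaw, and the study asked how its transcriptome changes in the weeks after internal derangement of the temporomandibular joint. Each of 20 one-colour arrays held RNA of 1 sample from a male rabbit of 6 months. There were 4 arrays from left joints at 1 week after the derangement, 4 at 2 weeks, 4 at 4 weeks and 4 at 8 weeks, and 4 arrays from rabbits left without any treatment. The labels name no sham operation, and the untreated rabbits carry no time label, so the operation, the time passed and the derangement cannot be told apart. The same control arrays serve all 4 comparisons with control.

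Cartilage has few or no blood vessels, and its cells live at low oxygen and obtain much of their energy by glycolysis. SLC2A1 encodes GLUT1, a facilitative transporter that carries glucose across the plasma membrane. ALDOA encodes aldolase A, which splits fructose 1,6-bisphosphate, GAPDH encodes the dehydrogenase of the next oxidative step, and LDHA encodes the muscle-type subunit of lactate dehydrogenase, which turns pyruvate into lactate. HIF1A encodes the oxygen-regulated subunit of hypoxia-inducible factor, a transcription factor whose protein is destroyed when oxygen is plentiful and which drives SLC2A1 and several glycolytic genes. Its activity is set largely at the level of the protein, which an RNA array does not measure.

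The probe sequences show how far the probes of a gene are separate measurements. They are 60 bases long and are given 5′ to 3′ from the scanner files, with positions in the transcript named there. The 5 SLC2A1 probes start at bases 2413 to 2417, each shifted by 1 base, and share 56 bases. The first 20 bases of the outermost 2 are printed, with capitals marking bases held by all 5 probes.
SLC2A1 A_04_P000625: ccaaCTTGTAAATACACCAA
SLC2A1 A_04_P000621: CTTGTAAATACACCAACACA
The 5 LDHA probes start at bases 908 to 911 and 930 and share 38 bases, marked in capitals in the first and the last of them.
LDHA A_04_P003200: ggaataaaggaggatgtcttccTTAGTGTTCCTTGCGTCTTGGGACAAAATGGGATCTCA
LDHA A_04_P003196: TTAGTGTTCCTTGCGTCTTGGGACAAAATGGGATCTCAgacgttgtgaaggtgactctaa
The 3 HIF1A probes start at bases 2135, 2195 and 2255, lie end to end and share no base, so these alone read different stretches of their transcript.
HIF1A A_04_P001198: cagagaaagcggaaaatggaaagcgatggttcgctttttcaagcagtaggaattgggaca
HIF1A A_04_P001197: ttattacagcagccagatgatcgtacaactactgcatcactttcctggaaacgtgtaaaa
HIF1A A_04_P001196: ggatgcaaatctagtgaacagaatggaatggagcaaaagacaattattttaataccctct
ALDOA and GAPDH have 1 probe each, starting at bases 759 and 979, and their results rest on these sequences alone.
ALDOA A_04_P000693: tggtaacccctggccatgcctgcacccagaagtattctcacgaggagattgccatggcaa
GAPDH A_04_P001361: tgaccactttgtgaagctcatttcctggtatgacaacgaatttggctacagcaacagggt

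Levels below are log2 units of a probe's intensity over the 75th percentile of its array, so that 1 unit is a doubling. The control and 2-week arrays were scanned on 1 day and the 1-, 4- and 8-week arrays on another, and each group lay on a slide of its own. Of the comparisons with control, that at 2 weeks therefore alone lies within a scan day, as do those among 1, 4 and 8 weeks, and slide and group cannot be told apart. The 75th percentile of signal was lowest, 174, on 1-week replicate 4 and highest, 641.6, on 4-week replicate 3. Of 10 chondrocyte markers, 4 had a measured probe (COL2A1, ACAN, SOX9 and CNMD), and COL2A1 and ACAN, the main collagen and the main proteoglycan of cartilage, were well above background on all arrays. Of 25 skeletal muscle markers 16 were measured, and their median level lay between -4.38 and -2.3 on the operated arrays. Control replicates 1 and 2 stood apart in them, with medians of 2.16 and 4.13, while control replicates 3 and 4 had -1.51 and -1.77. Fewer cells of a type and less RNA per cell cannot be told apart in such tissue samples.

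Among the 5 genes, SLC2A1 alone differed among the 5 groups by the F test. Its level was high at 1 and 4 weeks and in the control group and low at 2 and 8 weeks. The F test of limma called all 5 SLC2A1 probes (adjusted p 0.0371 to 0.0406), against 15.8% of the 26905 probes tested. Because these probes share 56 of 60 bases, they count as 1 measurement rather than 5. It called none of the other 10 probes: the adjusted p was 0.342 for ALDOA, 0.384 for GAPDH, 0.125 to 0.167 for the LDHA probes and 0.0588 to 0.232 for the HIF1A probes. The SLC2A1 call lies close to its threshold. The count fell to 0 without any one of 2-week replicates 2, 3 and 4, 4-week replicate 3, 8-week replicates 1, 2 and 3 and control replicates 1, 2 and 3, to 1 without 4-week replicate 2 or 4 and to 3 without 1-week replicate 2; for the brightest probe the adjusted p ranged from 0.0139 to 0.0824 when 1 array was left out.

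**Figure D1:**
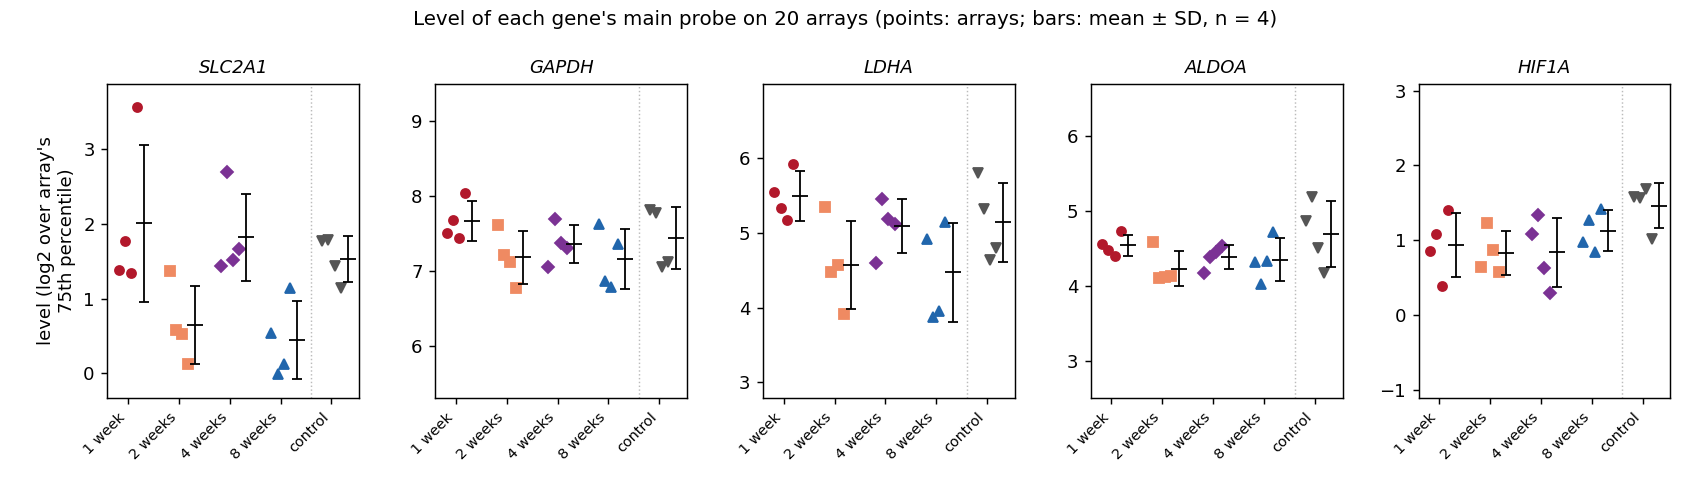
Level of the brightest probe of each gene (vertical axis, log2 over the array's 75th percentile, every panel spanning the same range of log2 units) in the 5 groups, with a point for each array and the mean ± SD of 4 arrays beside it. SLC2A1 spans the widest range, from -0.01 on an 8-week array to 3.56 on a 1-week array, and ALDOA the narrowest, from 4.02 to 5.19.

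The brightest SLC2A1 probe, A_04_P000621, read 1.38, 1.77, 1.34 and 3.56 at 1 week. At 2 weeks it read 1.37, 0.58, 0.52 and 0.12. At 4 weeks the values were 1.43, 2.69, 1.51 and 1.66. One array at 1 week and one at 4 weeks thus lay well above the rest of their group. At 8 weeks the probe read 0.54, -0.01, 0.13 and 1.14, and in control 1.77, 1.78, 1.43 and 1.14. The highest 8-week array and the lowest control array had nearly the same level, and the other 8-week arrays lay below every control array.

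The group means of this probe were 2.01 ± 1.05 at 1 week, 0.65 ± 0.52 at 2 weeks, 1.82 ± 0.58 at 4 weeks, 0.45 ± 0.52 at 8 weeks and 1.53 ± 0.31 in control (SD, n = 4 each). In descending order of means the groups were 1 week, 4 weeks, control, 2 weeks and 8 weeks. Each group overlapped with its neighbour in this order, and of the 2-week arrays replicate 1 alone lay within the control range. No SLC2A1 probe passed the threshold in any of the 7 pairwise comparisons by limma. The difference at 8 weeks against control was -1.08 ± 0.43 (SE, 95% confidence interval -1.99 to -0.17, adjusted p = 0.111, exact permutation p = 0.0571). It passed the threshold without 1-week replicate 4 (adjusted p = 0.0252), which is in neither group but widens the common spread, and in a fit of the 2 groups alone (adjusted p = 0.0384). At 2 weeks against control, within 1 scan day, the difference was -0.88 ± 0.43 (adjusted p = 0.666, exact permutation p = 0.0571). At 1 and 4 weeks the differences from control were 0.48 ± 0.43 and 0.29 ± 0.43 (adjusted p = 0.483 and 0.727).

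The 8-week level lay farther from the 1- and 4-week levels than from control. The difference at 8 weeks against 1 week was -1.56 ± 0.43 (95% confidence interval -2.47 to -0.66, adjusted p = 0.143) and against 4 weeks -1.37 ± 0.43 (-2.28 to -0.47, adjusted p = 0.207). In both comparisons the groups did not overlap for any of the 5 SLC2A1 probes, and the exact permutation p was 0.0286, the smallest that 4 against 4 arrays allow. Groups did not overlap for 8.05% of all tested probes at 8 weeks against 1 week and for 12% at 8 weeks against 4 weeks. Without 1-week replicate 4 the difference from 4 weeks passed the threshold (adjusted p = 0.0386). At 4 weeks against 1 week the difference was -0.19 ± 0.43 (adjusted p = 0.892), and without 1-week replicate 4 its sign turned, to 0.33.

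The summed level of the chondrocyte markers ran with SLC2A1 on some arrays and not on others. The 2 arrays with the highest SLC2A1 level, 1-week replicate 4 and 4-week replicate 2, were also those with the highest summed level of the 4 chondrocyte genes, 11.29 and 10.42. The 8-week array with the lowest SLC2A1 level, replicate 2, had the lowest summed level of all, 7.22. By group, the summed level ranged from 9 to 11.29 at 1 week, 7.61 to 8.99 at 2 weeks, 9.36 to 10.42 at 4 weeks, 7.22 to 9.69 at 8 weeks and 8.55 to 9.55 in control. Control replicates 1 and 2 depart from this order, with SLC2A1 levels of 1.77 and 1.78 at summed chondrocyte levels of 8.55 and 8.58. So do 8-week replicates 1 and 4, with SLC2A1 levels of 0.54 and 1.14 at 9.06 and 9.69. Control replicates 3 and 4 had SLC2A1 levels of 1.43 and 1.14 at 9.32 and 9.55. At 2 weeks, replicates 1, 2, 3 and 4 had SLC2A1 levels of 1.37, 0.58, 0.52 and 0.12 at 8.7, 8.94, 8.99 and 7.61. The sum rests mostly on the brighter of the 4 genes, and on 1-week replicate 1 it was 9 beside a median of 0.47. The part of cartilage content in the SLC2A1 differences was not tested.

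**Figure D2:**
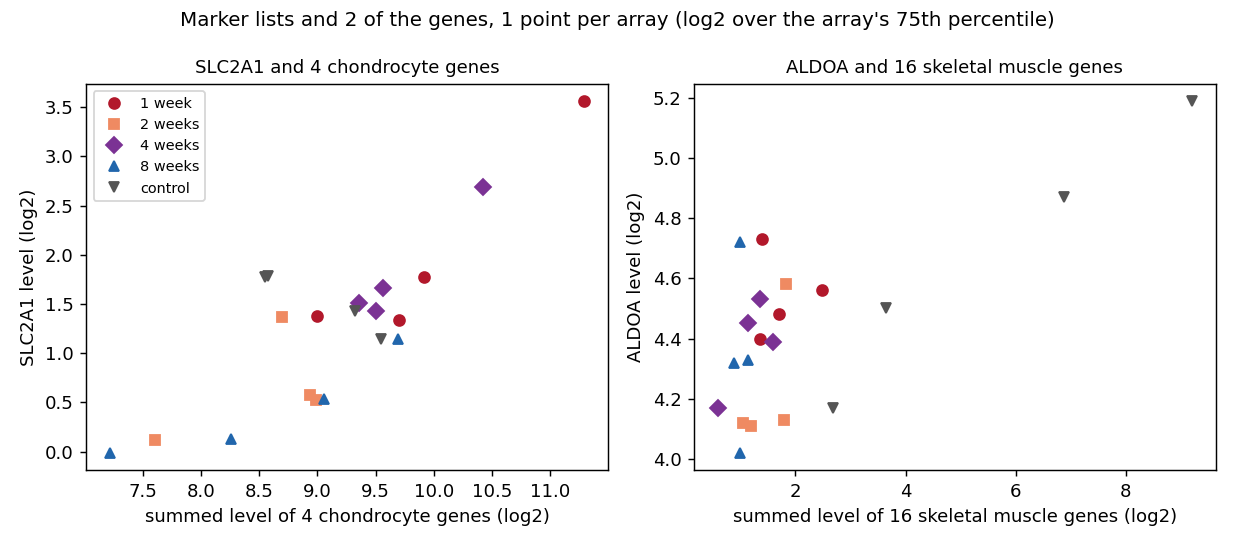
Left, SLC2A1 level (brightest probe) against the summed level of 4 chondrocyte genes; right, ALDOA level against the summed level of 16 skeletal muscle genes, all as log2 over the array's 75th percentile, with 1 point per array and groups by colour and shape. The highest SLC2A1 level, 3.56, is on the array with the highest chondrocyte level, 11.29, and the highest ALDOA levels, 4.87 and 5.19, are on the 2 control arrays with the highest muscle levels, 6.88 and 9.2.

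No probe of the 3 glycolytic enzymes ALDOA, GAPDH and LDHA passed the threshold in any of the 7 comparisons by limma. Their largest differences were those of LDHA at 8 weeks against 1 week, -1.02 to -0.97 over its 5 probes (unadjusted p 0.00811 to 0.0138). Because the 5 LDHA probes share 38 bases, they count as 1 measurement rather than 5. For the 6 LDHA and GAPDH probes the count at an unadjusted p under 0.05 was 6 at 8 weeks against 1 week, where 14.6% of all tested probes passed that limit. It was 0 at 1, 2, 4 and 8 weeks against control (29.4%, 7.75%, 23.8% and 27.5% of all tested probes) and 0 at 4 weeks against 1 week (12.3%) and at 8 weeks against 4 weeks (13%). ALDOA reached an unadjusted p under 0.05 only at 2 weeks against control.

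ALDOA read 4.56, 4.48, 4.4 and 4.73 at 1 week, 4.58, 4.11, 4.12 and 4.13 at 2 weeks and 4.17, 4.39, 4.45 and 4.53 at 4 weeks. It read 4.32, 4.02, 4.33 and 4.72 at 8 weeks and 4.87, 5.19, 4.5 and 4.17 in control. Every operated group overlapped with control, and control replicates 1 and 2 held the 2 highest values of all 20 arrays. The differences from control were -0.14 at 1 week, -0.45 at 2 weeks, -0.3 at 4 weeks and -0.34 at 8 weeks (SE 0.19 each, adjusted p = 0.653, 0.563, 0.357 and 0.267). The summed level of the muscle genes was 0.59 to 2.49 on the operated arrays, 6.88 and 9.2 on control replicates 1 and 2 and 3.64 and 2.69 on control replicates 3 and 4. Without control replicates 1 and 2 the ALDOA difference was 0.2 at 1 week, -0.11 at 2 weeks, 0.04 at 4 weeks and 0.01 at 8 weeks.

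GAPDH had the level range 7.44 to 8.04 at 1 week, 6.77 to 7.61 at 2 weeks, 7.05 to 7.69 at 4 weeks, 6.79 to 7.63 at 8 weeks and 7.05 to 7.81 in control. All 5 groups overlapped in pairs. The differences from control were 0.23, -0.26, -0.08 and -0.28 at 1, 2, 4 and 8 weeks (SE 0.23 each, adjusted p = 0.548, 0.899, 0.875 and 0.489). GAPDH transcript is often used as the reference of real-time PCR. Over the 20 arrays its SD was 0.36, against 0.29 for ALDOA and 0.86 for the brightest SLC2A1 probe.

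LDHA had the widest group differences of the 3 enzymes. Its means were lowest at 2 and 8 weeks, as were those of SLC2A1, GAPDH and ALDOA. The GAPDH means were 7.18 and 7.16 there, against 7.67 at 1 week, 7.36 at 4 weeks and 7.44 in control. The ALDOA means were 4.23 and 4.35, little below the 4.38 at 4 weeks. The brightest LDHA probe, A_04_P003196, read 5.55, 5.33, 5.17 and 5.92 at 1 week. It read 5.34, 4.47, 4.57 and 3.91 at 2 weeks and 4.6, 5.45, 5.19 and 5.12 at 4 weeks. The 8-week values, 4.92, 3.87, 3.95 and 5.15, fell into 2 high and 2 low arrays, and the control values were 5.8, 5.32, 4.63 and 4.8. At 8 weeks against 1 week the difference was -1.02 ± 0.34 (95% confidence interval -1.74 to -0.3, adjusted p = 0.194, exact permutation p = 0.0286), with no overlap for this probe and overlap for the other 4. Against control it was 0.36, -0.56, -0.05 and -0.66 at 1, 2, 4 and 8 weeks (SE 0.34 each, adjusted p = 0.519, 0.784, 0.954 and 0.221).

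Expressed per GAPDH signal on the same array, a view chosen after the data were seen, SLC2A1 was again lowest at 2 and 8 weeks. The log2 ratio of the brightest SLC2A1 probe to GAPDH was -6.53 ± 0.19 at 2 weeks and -6.71 ± 0.37 at 8 weeks, against -5.91 ± 0.2 in control (SD, n = 4 each). Neither group overlapped with control in this ratio, with differences of -0.62 and -0.8, as was the case for 2% and 8.01% of all tested probes per GAPDH signal. At 1 week against control the ratios of HIF1A and ALDOA did not overlap either, with differences of -0.76 and -0.37 (7.8% of all tested probes). The SLC2A1 ratio also did not overlap at 8 weeks against 1 week (-1.06, 10.5%) and against 4 weeks (-1.18, 3.64%). For each of these the exact permutation p was 0.0286, and 0.133 after Benjamini-Hochberg adjustment over the 28 ratios and comparisons. For LDHA the ratio differed from control by 0.13, -0.31, 0.03 and -0.39 at 1, 2, 4 and 8 weeks, with overlap in each. A ratio of this kind shows unequal change and not which of the 2 genes changed.

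**Figure D3:**
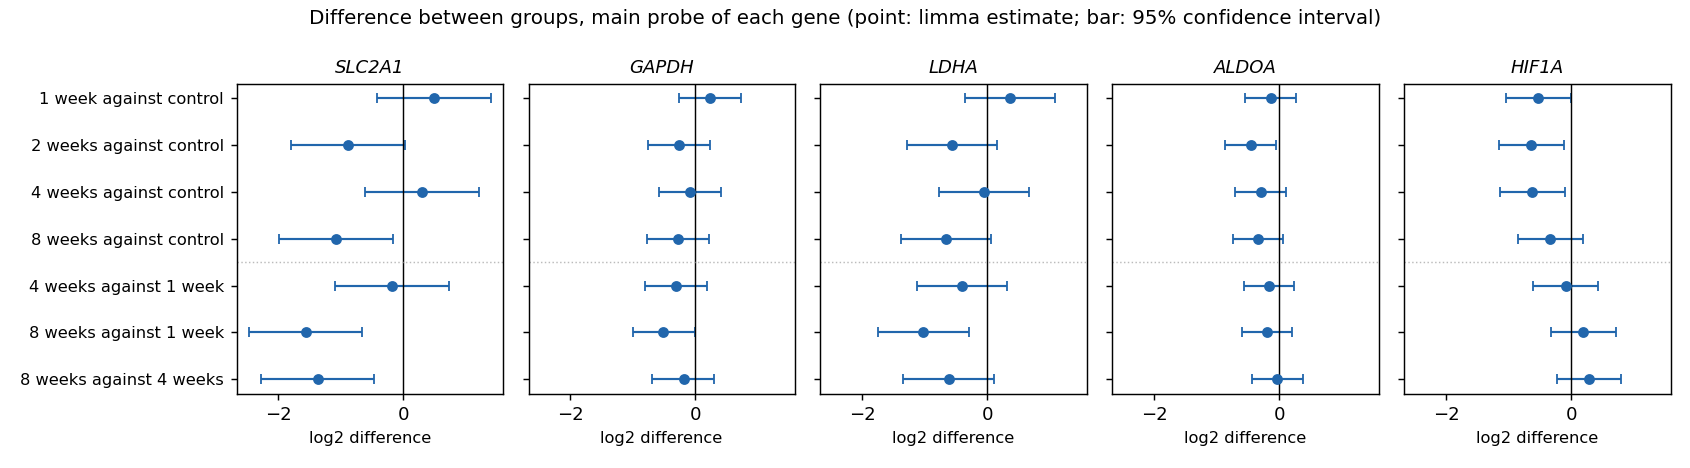
Log2 difference between groups (horizontal axis) for the brightest probe of each gene, with the limma estimate as a point and its 95% confidence interval as a bar, for 4 comparisons with control above the dotted line and 3 between times below it. The intervals of SLC2A1 at 8 weeks against control, 1 week and 4 weeks lie below 0, from -1.99 to -0.17, -2.47 to -0.66 and -2.28 to -0.47, although none passed the threshold after adjustment over all probes.

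HIF1A transcript was lower than in control at 1 week by 1 of its 3 probes, the only pairwise call among the 15 probes. Probe A_04_P001196 read -1.09, -1.32, -1.47 and -1.15 at 1 week, against -0.33, -0.35, -0.4 and -0.81 in control, and the groups did not overlap. Its difference was -0.78 ± 0.2 (SE, 1.72-fold lower, 95% confidence interval -1.21 to -0.35, adjusted p = 0.0162, exact permutation p = 0.0286). The neighbouring probes A_04_P001197 and A_04_P001198 had differences of -0.53 ± 0.25 and -0.62 ± 0.28 at 1 week (adjusted p = 0.161 and 0.144), with 1-week values that overlapped with control. The call for A_04_P001196 was lost without control replicate 1 (-0.74, adjusted p = 0.0511), without control replicates 1 and 2 (-0.65, adjusted p = 0.175) and with another background correction (-0.6, adjusted p = 0.252). That correction, normexp with an offset of 50, shrinks the differences of dim probes. With it 61 of all tested probes were called at 1 week against control, against 3745 as reported. The comparison of 1 week with control crosses the 2 scan days.

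Of the 9 probes found by name, 1 was thus called at 1 week against control, against 13.9% of all tested probes (4.21% lower). Limma called 0 of the 9 at 2 weeks (background 0.453%), 0 at 4 weeks (8.56%) and 0 at 8 weeks (12.8%). It called 0 of the 9 at 4 weeks against 1 week (1.07%), 0 at 8 weeks against 1 week (0.0149%) and 0 at 8 weeks against 4 weeks (0.558%). At an unadjusted p under 0.05 the counts among the 9 were 3, 6, 2 and 6 at 1, 2, 4 and 8 weeks against control (29.4%, 7.75%, 23.8% and 27.5% of all tested probes). They were 1 at 4 weeks against 1 week (12.3%), 5 at 8 weeks against 1 week (14.6%) and 5 at 8 weeks against 4 weeks (13%). All 5 overlapping SLC2A1 probes are in each of the 3 counts at 8 weeks. The groups did not overlap for 1 of the 9 probes at 1 week against control (16.8% of all probes), 3 of the 9 at 8 weeks against control (22.5%), and 0 of the 9 at 2 and 4 weeks (5.7% and 17.8%). They did not overlap for 0 of the 9 at 4 weeks against 1 week (6.47%).

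At the later times the 3 HIF1A probes stayed on the same side of control without passing the threshold. The brightest, A_04_P001197, read 0.86, 1.08, 0.39 and 1.41 at 1 week and 0.64, 1.23, 0.87 and 0.58 at 2 weeks. It read 1.09, 1.34, 0.63 and 0.3 at 4 weeks and 0.98, 1.27, 0.84 and 1.42 at 8 weeks. In control it read 1.58, 1.57, 1.69 and 1.02, and control replicate 4 lay within the range of every operated group. At 2 weeks, within 1 scan day, the 3 probes had differences of -0.65, -0.64 and -0.63 (adjusted p = 0.574, 0.476 and 0.315, in order of position). At 8 weeks they had differences of -0.29, -0.34 and -0.55 (adjusted p = 0.546, 0.408 and 0.0855). The probes differed most at 4 weeks, with -0.69 ± 0.28 and -0.62 ± 0.25 for the first 2 and -0.29 ± 0.2 for A_04_P001196 (adjusted p = 0.138, 0.131 and 0.422). With array weights A_04_P001197 was called lower at 1 week (-0.83, adjusted p = 0.0311) and at 4 weeks (-0.82, adjusted p = 0.0192). That setting called 3756 and 5028 of all tested probes at these times, against 3745 and 2304 as reported.

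**Figure D4:**
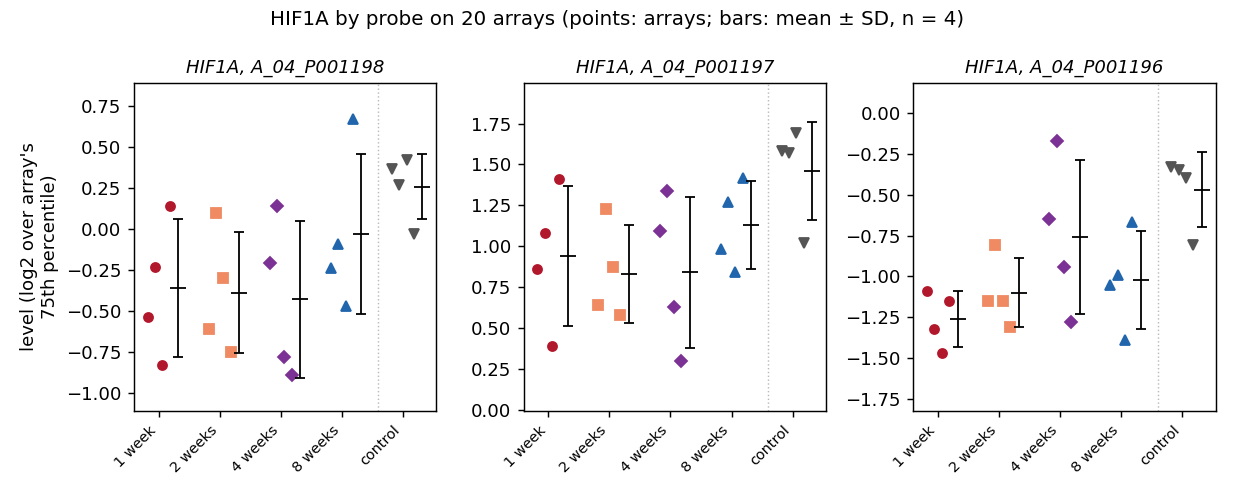
Level of HIF1A (vertical axis, log2 over the array's 75th percentile) on 20 arrays for each of its 3 adjacent probes, in order of position from left to right, with a point per array and the mean ± SD of 4 arrays. At the right, probe A_04_P001196 lies between -1.47 and -1.09 at 1 week and between -0.81 and -0.33 in control, without overlap, while the other 2 probes overlap between these groups.

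Across the 20 arrays, the probes of a gene ran closely together where they overlap in sequence and less so where they do not. Pearson's r between probes was 0.996 to 0.999 for SLC2A1, 0.994 to 0.998 for LDHA and 0.748 to 0.951 for HIF1A. Between genes, r of the brightest probes was 0.93 for GAPDH and LDHA, 0.84 for SLC2A1 and LDHA and 0.78 for SLC2A1 and GAPDH. HIF1A had r of 0.18 to 0.36 with the other 4 genes. These values describe the same 20 arrays, which share scan days, slides and tissue composition, and carry no test.

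The genes most alike to each of the 5 over the 20 arrays were sought among 637 other named genes. For SLC2A1 they were JPH1, junctophilin 1 (r = 0.95), ANXA11, annexin A11 (0.9), and PAPSS2, which makes the sulfate donor used on cartilage proteoglycans (0.88). LDHA and GAPDH were each other's nearest, followed by GPI, the glycolytic glucose phosphate isomerase (0.87 with LDHA and 0.85 with GAPDH). The next was JPH1 for LDHA (0.86), as for SLC2A1, and PGM1, the phosphoglucomutase that links glycogen to glycolysis, for GAPDH (0.84). For ALDOA they were EEF1A2, an elongation factor of muscle and neurons (0.85), RYR1, the calcium release channel of skeletal muscle (0.85), and SLN, a muscle regulator of the calcium pump (0.76). For HIF1A they were FN1, fibronectin (0.74), FTL, ferritin light chain (0.69), and SAA3, serum amyloid A3 (0.65).

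Among other glucose transporters, 3 were called against control. Of 11 listed transporters 4 were measured, and limma called 2 higher and 1 lower at 1 week, 2 higher and 1 lower at 4 weeks and 1 higher and 1 lower at 8 weeks, against control, with median differences of 0.51, 0.8 and -0.22. Over all tested probes the medians were 0.02, 0.03 and 0.04, and 13.9%, 8.56% and 12.8% were called. At 2 weeks 0 of the 4 were called (0.453% of all tested probes), with a median of -0.06 against 0.04 over all probes. SLC5A1, listed as a cortical sodium and glucose cotransporter, had a mean level of -0.69 at 1 week, -2.02 at 2 weeks, -1.28 at 4 weeks, -0.95 at 8 weeks and -2.1 in control. It was higher than in control at 1, 4 and 8 weeks (1.41, 0.81 and 1.15, SE 0.23 each, adjusted p = 0.00042, 0.0349 and 0.00325) and differed by 0.08 at 2 weeks (adjusted p = 0.992). Of 5 SLC5A1 probes 3 were tested, and 2 were called higher at each of 1, 4 and 8 weeks. Their differences from control ran from 1.09 to 2.49, 0.81 to 2.22 and 0.99 to 2.26 over the 3 probes. All high groups of SLC5A1 were scanned on 1 day, so scan day and operation cannot be told apart for it. SLC5A2, the kidney's low-affinity cotransporter, was higher at 1 and 4 weeks (1.86 and 1.87, SE 0.48, adjusted p = 0.0158 and 0.0229), on the same scan day. The call of SLC5A2 was lost at 1 week without 1-week replicate 4 (adjusted p = 0.0579), and those of SLC5A1 and SLC5A2 at 4 weeks without any one of 4-week replicates 2, 3 and 4 (adjusted p 0.065 to 0.101 and 0.0636 to 0.073). Without control replicate 1 the adjusted p was 0.105 for SLC5A1 at 4 weeks and 0.06 and 0.0842 for SLC5A2 at 1 and 4 weeks, without control replicate 2 it was 0.0853, 0.0534 and 0.0739, and without control replicate 3 it was 0.075 for SLC5A1 at 4 weeks. Without control replicates 1 and 2 together SLC5A1 was called at 1 week but not at 4 and 8 weeks (0.67 and 1, adjusted p = 0.285 and 0.0766), and SLC5A2 was not called at 1 or 4 weeks (1.22 each, adjusted p = 0.243 and 0.313). The call of SLC5A1 at 4 weeks was also lost without the filter (adjusted p = 0.0564), and that of SLC5A2 at 1 week with array weights (0.0727) and in a fit of the 2 groups alone (0.0902). With the normexp background correction none of the 5 was called, and few of all tested probes were (61, 30 and 42 at 1, 4 and 8 weeks).

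SLC2A4, the insulin-responsive transporter GLUT4 of muscle and fat, had 1 of 6 probes past the filter. It was not well above background at 4 and 8 weeks, where its level was at least 4.02-fold and 4.77-fold lower than in control. The fitted differences were -3.75 and -4.07 (adjusted p = 0.0283 and 0.0136). Every adjusted p given for SLC2A4 belongs to a fitted difference, and the bounds are approximate and were not tested. On the control arrays SLC2A4 read -0.88, 1.31, -2.7 and -5.63, and the first 2 are again the highest. At 1 week it was well above background on 1 array (difference -3.24 ± 1, adjusted p = 0.0405), and at 2 weeks, with 1 spot left out as an outlier, it was at least 3.5-fold lower and not called (adjusted p = 0.218). The skeletal muscle genes were high on the same control arrays. Without control replicates 1 and 2 SLC2A4 was not called at 1, 4 or 8 weeks (adjusted p = 0.478, 0.349 and 0.226). The mean of the other 2 control arrays, of which 1 was well above background, was then -4.17, beside bounds of -3.98 at 4 weeks and -4.23 at 8 weeks, so no size is given. In fits of the 2 groups alone the adjusted p was 0.204, 0.119 and 0.077 at 1, 4 and 8 weeks, and at 1 week the call was also lost without the filter (0.0587) and with the authors' deposited value table as input (0.0572). With 1 array left out the call was lost in 10 of 20 cases at 1 week (adjusted p up to 0.122), 5 at 4 weeks (up to 0.0912) and 0 at 8 weeks, with control replicates 1 and 2 among the lost cases at 1 and 4 weeks. SLC2A3, the transporter GLUT3, had 1 of 5 probes past the filter and passed no test (F test adjusted p = 0.225).

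Of 26 other glycolysis enzymes 5 were measured, GPI, PFKP, BPGM, ENO3 and LDHB, and 0 were called in any of the 7 comparisons. Their median differences from control were -0.22, -0.22, -0.11 and -0.22 at 1, 2, 4 and 8 weeks. Of all tested probes 13.9%, 0.453%, 8.56% and 12.8% were called at these times. GPI differed from control by 0.54 ± 0.22 at 1 week (adjusted p = 0.121). The main probe of PFKP is listed as PFKM in the files. ENO3, the muscle enolase, listed as ENO1 in the files, read -4.1 to -2.39 on the operated arrays and -1.31, 0.82, -3.37 and -3.63 in control, and passed no test. Of 15 genes of gluconeogenesis and glycogen 5 were measured by their main probe and 0 were called (median differences -0.03, -0.04, -0.2 and -0.08 at 1, 2, 4 and 8 weeks against control), with the lowest F test adjusted p, 0.0524, for PCK2, the mitochondrial carboxykinase. Another probe of PHKB, a subunit of phosphorylase kinase, was called lower at 1, 4 and 8 weeks, 1 of 4 probes of that gene. None of the named probes belonged to the 13 listed genes of pyruvate and lactate fate.

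Of 14 HIF subunits and regulators other than HIF1A, ARNT alone was measured. ARNT, the constant partner subunit of HIF1A, read -0.26, 0.08, -0.24 and 0.37 at 1 week against -0.41, -0.36, -0.65 and -0.36 in control, a difference of 0.43 ± 0.13 (adjusted p = 0.0354). The same probe differed from control by -0.1, 0.22 and 0.19 at 2, 4 and 8 weeks and was not called there. The comparison of 1 week with control crosses the 2 scan days. Of the 4 ARNT probes the one given alone was called, and their differences at 1 week ran from -0.02 to 0.78. The call was lost without 1-week replicate 2 or 4 (adjusted p = 0.0821 and 0.105) or control replicate 1, 2 or 3 (0.0671, 0.056 and 0.106). It was also lost under 6 of 10 other settings: median centring (0.3, adjusted p = 0.139), another background correction (0.26, 0.61), no filter (0.0651), array weights (0.0695), a fit of the 2 groups alone (0.196) and without control replicates 1 and 2 (0.112). Of 24 HIF target genes outside glycolysis 6 were measured, and 1 was called in a pairwise comparison, NOS2, inducible nitric oxide synthase. It was higher than in control at 1, 4 and 8 weeks, where 13.9%, 8.56% and 12.8% of all tested probes were called. The medians of the 6 genes were 0.15, 0.14, 0.33 and 0.08 at 1, 2, 4 and 8 weeks. Of the 8 probes of NOS2 only 1 passed the filter on dim probes, and the values rest on it. NOS2 read -3.52, -2.25, -3.41 and -1.6 at 1 week, and it was not well above background on any control or 2-week array. Its level was at least 2.17-fold higher at 1 week, 1.48-fold at 4 weeks and 1.68-fold at 8 weeks than in control. These bounds are approximate and were not tested. The fitted differences, which use control values not well above background, were 2.89, 2.34 and 2.52 (adjusted p = 2.99e-05, 0.000445 and 0.000192). As with SLC5A1, the groups in which NOS2 was high share a scan day. With the normexp background correction the NOS2 differences were 0.61, 0.16 and 0.28 and none was called (adjusted p = 0.804, 0.933 and 0.949). Its offset of 50 shrinks the differences of so dim a probe, so this setting cannot decide on the NOS2 calls. KDR and HMOX1, which encode a receptor of vascular endothelial growth factor and haem oxygenase 1, passed no pairwise test.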

How the data were processed

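Analysis started from the intensity that the authors deposited for each spot of 20 one-colour Agilent arrays. Per the file headers, Feature Extraction 10.7.1.1 (protocol GE1_107_Sep09) had corrected the background. Outlier spots (5 to 62 per array) were left out here, spots of a probe averaged, log2 taken and each array's 75th percentile subtracted. A probe was tested if well above background on at least 3 of 4 arrays of a group (26905 of 43603, 61.7%). No spot was saturated. Limma 3.58.1 (R 4.3.3) fitted 5 group means over 20 arrays, with Benjamini-Hochberg adjustment over all tested probes and calls at adjusted p under 0.05, two-sided as are the permutation tests. The deposited value table, also linear intensity with no centring (column medians 28.26 to 90), was an alternative; each of its 4 8-week columns matched another array of that group. On simulated data for 4 weeks against control (26905 probes), 56% of changes of log2 1 and 87% of log2 2 were recovered. The simulated probes were independent and normally distributed, and 200 were changed, whereas 2304 were called in the real comparison. Recovery in the real data may therefore differ.

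Of 43603 probes 2617 were named, through the files and a RefSeq table of rabbit genes whose assembly the files do not name, so no genome positions are given. A gene's main probe is its tested probe of the highest mean. All member probes are described; of each list up to 4 genes with the lowest F test p are named, and for each member the 3 most correlated genes. One listed gene that this rule names is not reported here. The members and lists were chosen with earlier results of these data known. Arrays were treated as separate animals from the design text. Replicate numbers did not pair the arrays: deviations of same-numbered arrays had a median correlation of 0.01 (-0.33 to 0.38, 40 pairs). Where a gene was not well above background in a group, a bound is given, from the higher of its level and the array's lowest level well above background. The bounds are approximate, as a brighter probe can also fail that criterion. On 8-week replicate 2 the lowest level well above background was -4.16, and ENO3 at -3.72 was not well above background. The number of arrays limits the precision.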

Additional observations from a re-analysis of the deposited data

Results flagged for a closer look

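On 5 occasions among the 75 pairs of group and member probe, the highest or lowest of 4 arrays lay beyond the limit of Dixon's test for 4 values at the 95% level; chance gives about 1 in 20 pairs. Of these, 3 are overlapping SLC2A1 probes on 1-week replicate 4, which read 3.27, 3.36 and 3.22 where the nearest array of the group read 1.29, 1.4 and 1.24. This array also had the lowest 75th percentile of signal, 174, the fewest spots well above background, 49.1%, and the highest summed chondrocyte level, 11.29. ALDOA read 4.58 on 2-week replicate 1, where the other arrays of its group reached at most 4.13. The HIF1A probe A_04_P001196 read -0.81 on control replicate 4, below the next control array at -0.4.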

How the results depend on the processing

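The count of 9 named probes called by the F test, 5 as reported, was 2 with quantile normalization, 0 with normexp background correction, 0 without the filter, 0 with the replicate block, 0 without control replicates 1 and 2, and 0 to 6 when 1 array was left out. At 1 week against control, 1 as reported, it was 0 with normexp, 3 with array weights, 0 without control replicates 1 and 2, and 0 to 1 with an array left out. At 8 weeks against control, 0 as reported, it was 1 with median centring, 6 with array weights, 5 in a fit of the 2 groups alone, and 0 to 5 with an array left out. At 4 weeks against control it was 2 with array weights, and at 8 against 4 weeks 5 with array weights and 0 to 5 with an array left out, against 0 as reported. Counts at 2 weeks and at 4 and 8 weeks against 1 week, and all counts of LDHA and GAPDH probes, stayed at 0. The replicate block changed no other count of member probes. Calls over all tested probes also moved with the setting. Array weights called 5579 at 8 weeks, 5028 at 4 weeks and 1510 at 8 against 4 weeks, against 3433, 2304 and 150 as reported. At 8 weeks against control 3619 were called with median centring and 3321 in a fit of the 2 groups alone. Without 1-week replicate 4 there were 4704 calls at 8 weeks against control and 411 at 8 against 4 weeks.

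Signs of uncalled differences turned as follows. With array weights SLC2A1 read -0.03 at 1 week against control and 0.21 at 4 against 1 week, and HIF1A 0.01 there. Without control replicates 1 and 2, ALDOA read 0.2, 0.04 and 0.01 at 1, 4 and 8 weeks, GAPDH 0.1, 0.27 and 0.08 at 2, 4 and 8 weeks, and LDHA 0.38 at 4 weeks. LDHA at 4 weeks read 0.1 with quantile normalization and 0.07 with normexp, and ALDOA at 8 against 4 weeks 0.09 with quantile normalization. With 1 array left out the ranges that cross 0 were -0.03 to 0.71 for SLC2A1, -0.32 to 0.02 for ALDOA (1 week), -0.21 to 0.04 for GAPDH, -0.22 to 0.17 for LDHA (4 weeks), -0.48 to 0.33 for SLC2A1, -0.28 to 0.08 for HIF1A (4 against 1 week) and -0.16 to 0.07 for ALDOA (8 against 4 weeks). The cause was not tested.

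Median centring moved the median of all probes to -0.12 at 1 and 8 weeks against control and the higher calls to 1851 of 3742 at 1 week, 1324 of 2489 at 4 weeks and 1412 of 3619 at 8 weeks, against 2612 of 3745, 1716 of 2304 and 2275 of 3433 as reported. With normexp and its offset of 50, 61, 30 and 42 probes were called there, and none of the 12 calls of listed genes was kept. The F test call of the brightest SLC2A1 probe was lost as well (adjusted p = 0.223), at signals of 327.7 to 2575.3. Why so many calls were lost with this setting was not tested. A scan-day term cannot be fitted across days and leaves contrasts within a day unchanged. Dim probes (SLC2A4, NOS2, SLC2A3) rest in part on surrogate values of low signals.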
